A study of Rattus norvegicus with 18 samples.

Results

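The genes of cholesterol and fatty acid synthesis were followed through rat glial cells exposed to amyloid fibrils. The group was a list of 32 named genes, taken by symbol from the tables of counts per gene, out of 17930 symbols that the tables list in all. It held 19 enzymes of sterol synthesis, of which 8 belong to the mevalonate pathway and 11 carry squalene to cholesterol, 6 regulators and carriers of sterol, and 7 enzymes of fatty acid synthesis and desaturation. The genes were named by their role, with no threshold on the values measured here, and earlier results of these data were known when the list was made. All 32 were listed in the astrocyte tables and 31 in the microglia tables, which do not list the symbol Scd.

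RNA was sequenced from primary cultures of wild-type Sprague-Dawley rats, prepared from the cortex of pups at postnatal day 2. Astrocytes and microglia were each left untreated (control), treated with Aβ42 fibrils or treated with Aβ40 fibrils for 24 h, with 3 libraries per group and 18 in all. The cultures were moved from medium with serum to serum-free medium with albumin shortly before treatment, and all groups, controls included, shared that change. The labels do not say that the replicates came from separate litters or cultures, so p-values measure the spread between these libraries, which may be technical.

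Cells make cholesterol from acetyl-CoA through mevalonate, farnesyl diphosphate, squalene and lanosterol, and fatty acids from the same acetyl-CoA through malonyl-CoA. SREBP2, encoded by Srebf2, drives the genes of sterol synthesis when membrane sterol is low, and SREBP1, encoded by Srebf1, drives mainly those of fatty acids. SCAP escorts both factors from the endoplasmic reticulum, INSIG proteins hold SCAP back when sterol is plentiful, and Insig1 is itself a target gene of SREBP. In the brain, where plasma lipoproteins hardly enter, glial cells make their own sterol, and astrocytes pass it on to neurons.

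The counts on genes ranged from 3674043 to 19013919 per astrocyte library and from 2271834 to 22274367 per microglia library. In microglia depth went with treatment, since the Aβ40 libraries held 2271834 to 4425805 counts, the control libraries 5098145 to 8249339 and the Aβ42 libraries 2613723, 22274367 and 17687416. The astrocyte libraries carried the astrocyte markers (9 genes, 8962 to 10884 CPM summed in controls, against 306 to 355 for 9 microglia markers) and the microglia libraries those of microglia (7351 to 8403 CPM, against 247 to 277 for the astrocyte markers). Both cultures also held markers of the oligodendrocyte lineage (10 genes), at 2165 to 3321 CPM summed in control astrocytes and 2575 to 2854 CPM in control microglia. A library stood apart in each cell type. The microglia library labelled Aβ42 replicate 1 had a mean correlation over genes of 0.961 with its own group and of 0.978 with the Aβ40 libraries, and 12 of the 31 listed members lay nearer to the Aβ40 mean in it. Astrocyte control replicate 2 had the lowest correlation with its own group, 0.947, and 34.2% of its reads were off genes or ambiguous between genes. Some of the calls on members that changed without these libraries are given beside the results, and not every such member is named.

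Values below are scaled CPM, counts relative to library size after TMM scaling within a cell type, given for the 3 libraries in replicate order or as their mean ± SD, and they allow a gene to be compared between groups but not with another gene, because transcript lengths were not used. A count of 3, the detection limit, stood for 0.130 to 1.38 CPM among the libraries, for counting error only. A difference or fold change is a fitted log2 value ± its standard error, and a gene was called when edgeR's quasi-likelihood test gave it an adjusted p under 0.05 over all genes tested. The standard errors, and the intervals built on them, were calculated back from the log2 value and the statistic of that test. Each of the listed members passed the filter on low counts. Permuting 3 libraries against 3 exactly gives no two-sided p under 0.1, and the calls therefore depend on how edgeR pools the spread over genes.

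The first comparison asked how the untreated cell types differ. Control microglia held more transcript of most sterol genes than control astrocytes, and less of both fatty acid desaturases and of Srebf1 and Scap. Of 31 members tested, 17 were higher and 5 lower in microglia, where 68.8% of all 11581 genes were called (34.2% higher and 34.5% lower). Among the 19 sterol enzymes 13 were higher and 0 lower, with a median log2 difference of 0.59 against 0.00 over all genes tested. In whole cultures fewer cells of a type and less RNA per cell cannot be told apart. With library totals in place of TMM the median of all genes moved to -0.28, 11 members were higher and 7 lower, and the sterol enzymes split into 7 higher and 2 lower. Under that scaling 8064 genes were called in all, against 7963 with TMM. Without astrocyte control replicate 2, Acat2 (0.40) and Dhcr7 (0.32) no longer passed.

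The largest difference belonged to Stard4, which carries sterol between membranes. It stood at 4.52 ± 1.46 CPM in control astrocytes and at 43.3 ± 2.77 CPM in control microglia, each on its own cell type's scale, and its log2 difference in the joint fit was 3.50 ± 0.22, edgeR adjusted p = 3.75e-11. Ebp, the sterol isomerase (1.68 ± 0.14), Hsd17b7, a sterol ketone reductase (1.58 ± 0.23), Idi1, the isopentenyl diphosphate isomerase (1.47 ± 0.29), Fdps, the farnesyl diphosphate synthase (1.13 ± 0.20), and Insig1 (1.06 ± 0.14) were also higher in microglia by over 2-fold. Acaca, the acetyl-CoA carboxylase that commits carbon to fatty acids, was higher in microglia as well (1.29 ± 0.16).

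The desaturases that make polyunsaturated fatty acids went the other way, Fads1 by -1.94 ± 0.11, edgeR adjusted p = 9.75e-12, and Fads2 by -1.48 ± 0.13. Srebf1 and Scap were lower in microglia by the same amount, -1.48 ± 0.30 and -1.48 ± 0.18, while Srebf2 was higher (0.99 ± 0.23). Insig2 did not pass the test (0.38 ± 0.21, edgeR adjusted p = 0.108), and Fasn, the fatty acid synthase, had a difference near 0 (-0.01 ± 0.24). Hmgcs1, the HMG-CoA synthase (0.09 ± 0.16), Sqle, the squalene epoxidase (-0.05 ± 0.12), and Msmo1, a methylsterol oxidase (-0.32 ± 0.15), did not pass either.

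**Figure D1:**
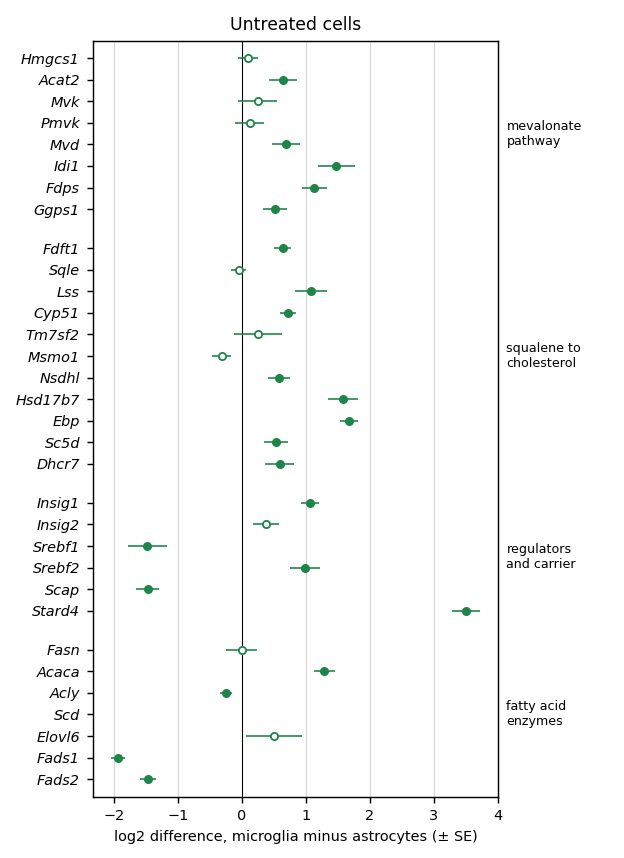
Log2 difference of each listed member between control microglia and control astrocytes (horizontal axis, microglia minus astrocytes, ± SE, 3 libraries per group), with filled points for members called by edgeR and Scd left blank because microglia tables do not list it. Stard4 lies far to the right at 3.50, and Fads1, Fads2, Srebf1 and Scap lie to the left, between -1.94 and -1.48.

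Each fibril was then compared with control in astrocytes. Sterol genes rose with both fibrils, from lanosterol synthase and squalene synthase to the INSIG pair and Stard4, whereas the polyunsaturated desaturases Fads1 and Fads2 fell. With Aβ42 fibrils 13 of 32 members rose and 2 fell, where 37% of all 11690 genes were called (16.5% higher and 20.4% lower). With Aβ40 fibrils 10 rose and 3 fell, where 33.3% of genes were called (14.9% higher and 18.4% lower). The 19 sterol enzymes gave 9 risen and 0 fallen with Aβ42 (median log2 fold change 0.55, against 0.00 over all genes) and 6 risen and 0 fallen with Aβ40 (0.35, against 0.00).

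Insig1, the sterol-regulated brake on SCAP, measured 51.5, 66.3 and 59.1 CPM in the 3 control libraries, 128, 151 and 153 CPM with Aβ42 and 117, 103 and 112 CPM with Aβ40. Every treated library was above every control, where 45.7% of all genes with Aβ42 and 43.2% with Aβ40 had no overlap in either direction. The Aβ42 libraries were above the Aβ40 libraries, where 18.9% of all genes had no overlap. The log2 fold changes were 1.29 ± 0.14, edgeR adjusted p = 2.58e-05, for Aβ42 and 0.91 ± 0.13, edgeR adjusted p = 0.000361, for Aβ40. Its partner Insig2 rose by about the same amount with either fibril, from 9.56 ± 0.193 CPM to 15.2 ± 1.75 and 15.2 ± 3.06 CPM (0.67 ± 0.19 and 0.66 ± 0.19).

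Hsd17b7 had the highest rise with Aβ42 of the enzymes after squalene. It went from 3.34, 2.63 and 4.43 CPM in controls to 12.7, 11.7 and 13.1 with Aβ42 and 10.3, 7.86 and 8.43 with Aβ40. That is 3.36-fold (1.75 ± 0.21, edgeR adjusted p = 7.06e-05) and 2.37-fold (1.24 ± 0.21). The groups did not overlap, beside 45.7% of all genes between control and Aβ42, 43.2% between control and Aβ40 and 18.9% between the fibrils. Hsd17b7 was named for its fold change or p-value, so this separation adds no further support. Lss, which folds squalene epoxide into lanosterol, measured 14.5, 11.01 and 30.3 CPM in controls, 59.5, 58.2 and 48.2 with Aβ42 and 49.5, 46.8 and 52.5 with Aβ40, a rise of 1.50 ± 0.29 and 1.34 ± 0.29. The control libraries of Lss were widely spread, so the size of its rise depends on which controls are used, and it was 1.20 and 1.04 without control replicate 2.

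Squalene synthase, Fdft1, had closer replicates. It measured 76.3, 107 and 86.2 CPM in controls, 154, 169 and 177 with Aβ42 and 145, 134 and 136 with Aβ40 (0.89 ± 0.14, edgeR adjusted p = 0.000484, and 0.62 ± 0.14). The 3 groups did not overlap, beside 45.7% and 43.2% of all genes for Aβ42 and Aβ40 against control and 18.9% between the fibrils. Fdft1 too was named for its p-value, so the separation adds no further support. Squalene epoxidase, Sqle, which makes the substrate of Lss, rose less and passed the test with Aβ42 alone (0.39 ± 0.12, edgeR adjusted p = 0.0294, against 0.32 ± 0.12, adjusted p = 0.0680). Ebp rose from 14.3 ± 1.45 to 24.1 ± 1.07 and 23.01 ± 2.23 CPM. Nsdhl, a sterol dehydrogenase, rose with Aβ42 (0.55 ± 0.19), and Sc5d, Cyp51 and Msmo1 gave 0.14, 0.27 and 0.30 with Aβ42 and -0.04, -0.04 and -0.05 with Aβ40, none of which passed.

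In the mevalonate pathway the thiolase Acat2, which joins acetyl-CoA units, rose most. It measured 20.9, 14.6 and 33.1 CPM in controls, 52.04, 57.7 and 51.4 with Aβ42 and 49.7, 47.4 and 52.2 with Aβ40 (1.19 ± 0.24, edgeR adjusted p = 0.00229, and 1.07 ± 0.23). Fdps measured 107, 46.2 and 100.03 CPM in controls, 178, 179 and 163 with Aβ42 and 135, 145 and 148 with Aβ40 (1.03 ± 0.25 and 0.75 ± 0.25), and its control replicate 2 was lower than the other 2. Mvd, the mevalonate diphosphate decarboxylase, rose with Aβ42 (0.69 ± 0.23). The other members of this pathway did not pass with either fibril, from Pmvk with Aβ42 (-0.16 ± 0.27) and Ggps1 with Aβ40 (-0.04 ± 0.22) to Mvk (0.79 ± 0.33 and 0.73 ± 0.33).

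Stard4 was low in control astrocytes, at 3.06, 5.98 and 4.50 CPM, and measured 10.5, 10.5 and 10.6 CPM with Aβ42 and 10.4, 6.10 and 9.03 CPM with Aβ40. It rose with both fibrils, by 1.21 ± 0.26, edgeR adjusted p = 0.00338, and 0.88 ± 0.26. The transcription factors themselves did not pass the test. Srebf2 measured 171, 84.3 and 197 CPM in controls, 267, 237 and 194 with Aβ42 and 195, 254 and 229 with Aβ40 (0.62 ± 0.26, edgeR adjusted p = 0.0891, and 0.58 ± 0.26, adjusted p = 0.118).

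Srebf1 measured 395, 162 and 472 CPM in controls, 329, 320.1 and 242 with Aβ42 and 309, 364 and 359 with Aβ40 (-0.21 ± 0.30 and 0.00 ± 0.30), and Scap 312, 183 and 319 CPM in controls, 387, 351 and 309 with Aβ42 and 335, 403 and 365 with Aβ40 (0.36 ± 0.20 and 0.44 ± 0.20). In each of these 3 genes control replicate 2 was the lowest of all 9 libraries. Without it Srebf1 fell with Aβ42 (-0.54, edgeR adjusted p = 0.00531), and the count of members called was 22 with Aβ42 (18 higher and 4 lower, beside 46.9% of all genes) and 16 with Aβ40 (13 and 3, beside 41.8%).

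Among the fatty acid enzymes the direction depended on the step. Fads2, the delta-6 desaturase that starts polyunsaturated synthesis, measured 303, 267 and 297 CPM in controls, 167, 149 and 152 with Aβ42 and 139, 166 and 149.7 with Aβ40, a fall with log2 fold changes of -0.89 ± 0.12, edgeR adjusted p = 0.000136, and -0.93 ± 0.12. Fads1, the delta-5 desaturase, went from 463, 413 and 454 CPM in controls to 279, 281 and 278 with Aβ42 and 237, 229 and 243 with Aβ40 (-0.67 ± 0.10 and -0.91 ± 0.10). Scd, the stearoyl-CoA desaturase that makes monounsaturated fatty acids, rose instead, from 47.6, 50.5 and 50.1 CPM to 88.1, 95.8 and 98.2 CPM with Aβ42 and 77.5, 72.00 and 68.5 CPM with Aβ40 (0.93 ± 0.12, edgeR adjusted p = 9.74e-05, and 0.56 ± 0.12). In all 3 desaturases the control and treated libraries did not overlap, beside 45.7% of all genes with Aβ42 and 43.2% with Aβ40.

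Fasn measured 351, 222 and 516 CPM in controls, 277, 256 and 224 with Aβ42 and 218, 227 and 226 with Aβ40. It fell with Aβ40 (-0.70 ± 0.24, edgeR adjusted p = 0.0442) and did not pass with Aβ42 (-0.53 ± 0.24, adjusted p = 0.113), and its control libraries overlapped the treated ones. Without control replicate 2 it fell with Aβ42 as well (-0.78, edgeR adjusted p = 0.000622). Acly, which makes cytosolic acetyl-CoA from citrate, Acaca and the elongase Elovl6 did not pass with either fibril, with log2 fold changes of 0.20, -0.05 and -0.25 with Aβ42 and of 0.25, -0.25 and -0.35 with Aβ40. Elovl6 was near the detection limit, at 1.17 to 5.03 CPM over the 9 libraries.

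**Figure D2:**
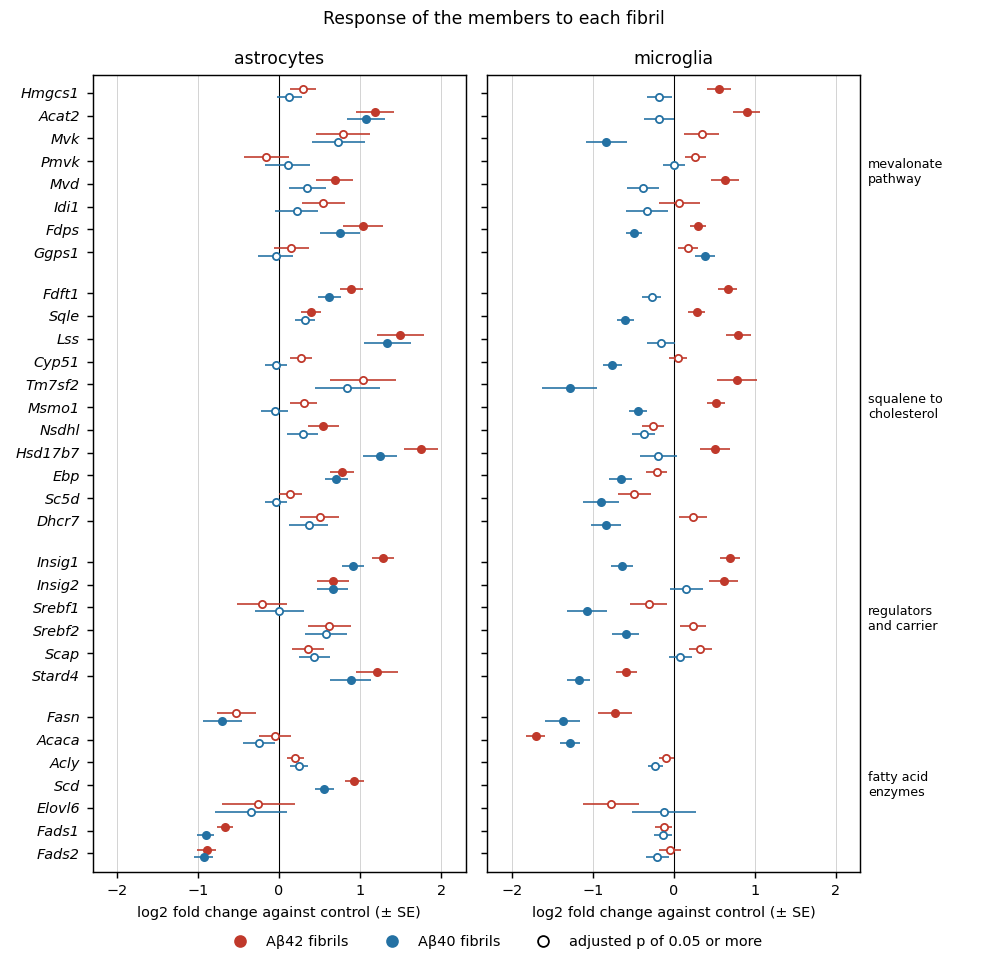
Log2 fold change of each member against control (horizontal axis, ± SE, 3 libraries per group) in astrocytes (left) and microglia (right), red for Aβ42 and blue for Aβ40 fibrils, open where the edgeR adjusted p was 0.05 or more. In astrocytes both colors lie close together and to the right for most sterol genes, as for Lss at 1.50 and 1.34, while in microglia they part, as for Insig1 at 0.69 and -0.64.

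In microglia the calls among sterol genes went in opposite directions for the fibrils. Aβ42 raised 10 of 19 sterol enzymes and lowered none, and Aβ40 lowered 9 and raised 1, while Fasn and Acaca fell with both. With Aβ42, 12 of 31 members rose and 3 fell, where 53.7% of all 10837 genes were called (27.1% higher and 26.6% lower). With Aβ40, 1 rose and 15 fell, where 41% of genes were called (19.6% higher and 21.4% lower). The median log2 fold change of the sterol enzymes was 0.30 with Aβ42 and -0.38 with Aβ40, against 0.01 for both over all genes tested.

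Acat2 and Lss had the highest fold changes of the sterol enzymes with Aβ42. Acat2 measured 34.99, 28.97 and 29.1 CPM in controls, 43.2, 72.02 and 54.8 with Aβ42 and 25.8, 27.96 and 28.96 with Aβ40, a rise with Aβ42 (0.90 ± 0.17, edgeR adjusted p = 0.000775) and no call with Aβ40 (-0.18 ± 0.18). Hmgcs1 measured 306, 337 and 265 CPM in controls, 533, 453 and 351 with Aβ42 and 256, 249.6 and 298 with Aβ40 (0.55 ± 0.15, edgeR adjusted p = 0.00859, and -0.18 ± 0.15). In both genes every Aβ42 library was above every control library, where 54% of all genes had no overlap between these groups in either direction.

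Fdft1 had the values 129, 117 and 106 CPM in controls, 170.3, 206 and 179 with Aβ42 and 90.97, 94.6 and 106 with Aβ40, a rise with Aβ42 (0.66 ± 0.11, edgeR adjusted p = 0.000453) and no call with Aβ40 (-0.28 ± 0.12). Lss followed the same order, at 38.3, 32.1 and 34.01 CPM in controls, 47.2, 70.9 and 59.8 with Aβ42 and 27.03, 31.8 and 35.9 with Aβ40 (0.79 ± 0.15 and -0.16 ± 0.17). Msmo1 rose with Aβ42 and fell with Aβ40, at 153, 152 and 145 CPM in controls, 208, 232 and 204 with Aβ42 and 110.0, 98.4 and 125 with Aβ40 (0.52 ± 0.11, edgeR adjusted p = 0.00166, and -0.44 ± 0.11, edgeR adjusted p = 0.00727). Sqle (0.28 ± 0.10 and -0.60 ± 0.11), Fdps (0.30 ± 0.10 and -0.49 ± 0.10) and Tm7sf2, a sterol reductase (0.78 ± 0.25 and -1.29 ± 0.34), also rose with Aβ42 and fell with Aβ40, so 4 enzymes were called in both directions.

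Other enzymes fell with Aβ40 and did not pass with Aβ42. Cyp51, the lanosterol demethylase, measured 315, 357 and 302 CPM in controls, 365, 345 and 299.8 with Aβ42 and 187, 178 and 211 with Aβ40 (0.05 ± 0.11, and -0.76 ± 0.12, edgeR adjusted p = 0.000204). Ebp measured 37.9, 32.3 and 43.2 CPM in controls, 32.4, 32.6 and 33.02 with Aβ42 and 25.3, 21.9 and 25.3 with Aβ40 (-0.21 ± 0.13, and -0.66 ± 0.14, edgeR adjusted p = 0.00250). In both the control and Aβ42 libraries were close or overlapped, and the Aβ40 libraries were below them all. Of all genes, 59.5% had no overlap between control and Aβ40 and 29.3% none between the fibrils, in either direction. Dhcr7, which completes cholesterol (-0.84 ± 0.19), Mvk, the mevalonate kinase (-0.84 ± 0.25), and Sc5d, the sterol desaturase (-0.90 ± 0.22), fell with Aβ40 as well. Ggps1, which makes geranylgeranyl diphosphate for protein prenylation and leaves the sterol line, was the 1 enzyme to rise with Aβ40 (0.38 ± 0.12, edgeR adjusted p = 0.0289). That call was lost without control replicate 2 or 3, without Aβ40 replicate 1 or 2, and with the libraries thinned to the smallest.

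Idi1 and Nsdhl stayed uncalled in both comparisons with control. Idi1 measured 148, 171 and 124 CPM in controls, 236, 139 and 98.3 with Aβ42 and 104, 106 and 144 with Aβ40, and Aβ42 replicate 1 was the highest of the 9 libraries while replicates 2 and 3 were inside or below the control range (0.07 ± 0.26 and -0.33 ± 0.26). Sc5d was inside the control range in Aβ42 replicate 1 alone, at 82.8, 50.1 and 41.9 CPM against 78.5, 88.1 and 68.5 in controls (-0.49 ± 0.21, edgeR adjusted p = 0.0649). Without that library Sc5d was at -0.77 (edgeR adjusted p = 1.90e-05) and Idi1 at -0.31 (adjusted p = 0.0765).

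Insig1 moved apart between the fibrils. Its values were 102, 117 and 92.3 CPM in controls, 143, 187 and 170.2 with Aβ42 and 72.4, 61.1 and 66.2 with Aβ40, a rise (0.69 ± 0.13, edgeR adjusted p = 0.000737) and a fall (-0.64 ± 0.13, edgeR adjusted p = 0.00225). The 3 groups did not overlap, beside 54% of all genes between control and Aβ42, 59.5% between control and Aβ40 and 29.3% between the fibrils. Insig2 measured 11.9, 7.15 and 11.7 CPM in controls, 16.8, 16.6 and 14.9 with Aβ42 and 11.3, 11.6 and 11.95 with Aβ40, and rose with Aβ42 (0.61 ± 0.18, edgeR adjusted p = 0.0123), with 0.15 ± 0.21 for Aβ40. Scap did not pass with either (0.33 ± 0.14 and 0.08 ± 0.14), at 79.5, 92.7 and 73.8 CPM in controls, 85.97, 104 and 115 with Aβ42 and 77.7, 82.8 and 101 with Aβ40.

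Both SREBP genes fell with Aβ40. Srebf2 measured 250.2, 276 and 230.0 CPM in controls, 207, 333 and 342 with Aβ42 and 166, 164 and 172 with Aβ40 (0.23 ± 0.16, and -0.59 ± 0.17, edgeR adjusted p = 0.0127). Srebf1 measured 103, 108 and 99.1 CPM in controls, 41.2, 97.01 and 102 with Aβ42 and 52.4, 50.3 and 43.7 with Aβ40 (-0.31 ± 0.23, and -1.07 ± 0.25, edgeR adjusted p = 0.00436). In Srebf1 the library labelled Aβ42 replicate 1 lay below the Aβ40 libraries while replicates 2 and 3 lay at the level of the controls, and in Srebf2 it was below every control. Without it the Aβ42 fold change of Srebf1 was -0.06 (edgeR adjusted p = 0.554) and that of Srebf2 0.42 (adjusted p = 0.000352).

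Stard4 fell with both fibrils, from 44.3, 40.2 and 45.5 CPM in controls to 28.8, 30.7 and 27.1 with Aβ42 (-0.59 ± 0.13, edgeR adjusted p = 0.00260) and 22.9, 16.8 and 17.5 with Aβ40 (-1.18 ± 0.15, edgeR adjusted p = 3.99e-05). Of the fatty acid enzymes, Acaca fell most, from 104, 110.5 and 117 CPM to 38.8, 34.7 and 29.9 with Aβ42 and 43.4, 45.4 and 47.8 with Aβ40. Its log2 fold changes were -1.71 ± 0.12, edgeR adjusted p = 1.77e-07, and -1.28 ± 0.12, edgeR adjusted p = 3.29e-06. Neither treated group overlapped the controls, beside 54% of all genes with Aβ42 and 59.5% with Aβ40. Fasn measured 284, 343 and 284 CPM in controls, 109, 223 and 213 with Aβ42 and 116, 127 and 109 with Aβ40 (-0.72 ± 0.21, edgeR adjusted p = 0.0114, and -1.37 ± 0.22, edgeR adjusted p = 0.000262). The library labelled Aβ42 replicate 1 stood at the Aβ40 level in Fasn, and without it the fold change with Aβ42 was -0.48 (edgeR adjusted p = 0.000290).

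The remaining fatty acid enzymes of microglia did not pass the test. Acly gave -0.09 ± 0.09 with Aβ42 and -0.23 ± 0.09 with Aβ40, Fads1 -0.13 ± 0.11 and -0.14 ± 0.11, and Fads2 -0.05 ± 0.14 and -0.21 ± 0.14. Elovl6 was near the detection limit, at 1.84 to 6.18 CPM (-0.78 ± 0.35 and -0.12 ± 0.40). Scd is missing under that symbol, and the tables list Scd1, which the RefSeq gene table gives as a synonym of Scd. As Scd1 it measured 30.98, 35.2 and 26.5 CPM in control microglia, 37.99, 46.2 and 33.1 with Aβ42 and 20.8, 19.9 and 22.98 with Aβ40 (log2 fold changes of 0.35, and -0.55 ± 0.17, edgeR adjusted p = 0.0219). It was not counted among the members of microglia.

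Without the library labelled Aβ42 replicate 1, the members called with Aβ42 against control were 23 of 31 (17 higher and 6 lower), beside 70.3% of all genes. The 8 members that passed there and not with every library were Mvk (0.50), Pmvk (0.27), Dhcr7 (0.39), Srebf2, Scap (0.42), Nsdhl (-0.37), Sc5d and Elovl6 (-0.89). Without Aβ42 replicate 2 the members called were 9, where 4659 genes were called in all against 5820 with every library. With the libraries thinned to the smallest, 10 members were higher and 3 lower with Aβ42 (beside 43.2% of genes) and 0 and 13 with Aβ40 (beside 36.2%).

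The Aβ42 and Aβ40 peptides differ by the isoleucine and alanine that end the longer one, and the authors' NMR measurements gave their fibrils different folds. The fibrils were compared with each other at the same time point. In microglia most sterol genes were higher with Aβ42 than with Aβ40, along with Insig1, Srebf2 and Stard4, whereas in astrocytes no member was called. Among the microglia members 17 of 31 were higher and 1, Acaca, was lower, where 20.3% of all genes were called (11.3% higher and 9.01% lower). The sterol enzymes gave 14 higher and 0 lower of 19, with a median log2 difference of 0.81 against 0.01 over all genes, and the 6 fatty acid enzymes gave 0 higher and 1 lower, with a median of 0.07.

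The sterol enzyme with the highest difference was Tm7sf2, at 12.4, 28.4 and 18.5 CPM with Aβ42 and 3.38, 5.59 and 6.89 CPM with Aβ40 (2.06 ± 0.32, edgeR adjusted p = 0.00663, 95% interval 1.37 to 2.76). Insig1 differed by 1.33 ± 0.13, edgeR adjusted p = 0.00162 (interval 1.04 to 1.62), which is 2.52-fold. The smallest p-values after that of Insig1 were those of Msmo1 (0.96 ± 0.11, edgeR adjusted p = 0.00284), Sqle (0.88 ± 0.11), Fdft1 (0.94 ± 0.12), Fdps (0.80 ± 0.10) and Cyp51 (0.81 ± 0.12, edgeR adjusted p = 0.00583). The Aβ42 and Aβ40 libraries of each of these 7 genes did not overlap, beside 29.3% of all genes. The 7 were named for their difference or p-value, so this separation adds no further support.

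Acat2 (1.08 ± 0.18), Mvk (1.18 ± 0.25), Mvd (1.01 ± 0.19), Dhcr7 (1.08 ± 0.19), Lss (0.95 ± 0.16), Hmgcs1 (0.73 ± 0.15), Hsd17b7 (0.70 ± 0.21) and Ebp (0.44 ± 0.14) were higher with Aβ42 as well. The 5 sterol enzymes that did not pass were Idi1 (interval -0.18 to 0.98), Pmvk (-0.03 to 0.55), Ggps1 (-0.48 to 0.06), Nsdhl (-0.20 to 0.43) and Sc5d (-0.07 to 0.90). Srebf2 was higher with Aβ42 (0.82 ± 0.17, edgeR adjusted p = 0.0150) and so was Stard4 (0.59 ± 0.15), whereas Srebf1 (interval 0.22 to 1.30), Insig2 (0.04 to 0.89) and Scap (-0.06 to 0.56) did not pass after adjustment.

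Acaca was lower with Aβ42 than with Aβ40 (-0.42 ± 0.12, edgeR adjusted p = 0.0364). Fasn had a difference of 0.65 ± 0.21 with an interval of 0.18 to 1.11, and Fads1 and Fads2 had intervals of -0.24 to 0.25 and -0.15 to 0.47. Without the library labelled Aβ42 replicate 1 the count of members called was 22 of 31, beside 53.8% of all genes. The 4 members that passed there and not with every library were Srebf1 (1.01, edgeR adjusted p = 5.38e-07), Fasn (0.88, edgeR adjusted p = 3.83e-06) and Scap (0.35), which were higher with Aβ42, and Ggps1 (-0.27), which was lower. In a fit of the 2 fibril groups alone 8 members were called, beside 1.02% of genes, and 8 to 11 members were called when 1 of the other 5 fibril libraries was left out, beside 0.905 to 1.38% of genes.

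In astrocytes 0 of 32 members were called between the fibrils, where edgeR called 10 genes in all (0.0855%) and the smallest adjusted p of a member was 0.367. DESeq2 called 0 members too, where it called 141 genes in all. At an unadjusted p under 0.05 there were 5 members, all higher with Aβ42, beside 6.3% of all genes. The sign was positive for 28 of the 32, and in 11 members, all higher with Aβ42, the libraries did not overlap, beside 18.9% of all genes. For Insig1 the difference was 0.38 ± 0.13 (interval 0.09 to 0.67), for Sqle 0.07 ± 0.12 (-0.20 to 0.34), for Hsd17b7 0.51 ± 0.18 (0.11 to 0.90), for Mvd 0.33 ± 0.22 (-0.15 to 0.82), for Scd 0.37 ± 0.11 (0.12 to 0.62) and for Pmvk -0.26 ± 0.27 (-0.85 to 0.33). Some of these intervals reach differences of the size called in microglia, so the test does not show that the fibrils acted alike in astrocytes.

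Whether the fibrils differ more in microglia than in astrocytes was tested by an interaction term over all 18 libraries, a test added after the data had been seen. Insig1 had a larger difference in microglia (0.96 ± 0.20, edgeR adjusted p = 0.0391), and so had Sqle (0.82 ± 0.17, edgeR adjusted p = 0.0357), which made 2 of 31 members, beside 0.389% of all genes. The interaction had a positive sign in 26 of 31 members, with a median of 0.51 against 0.03 over all genes. Without the library labelled Aβ42 replicate 1 it was called in 10 members, all higher, beside 14.8% of all genes.

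**Figure D3:**
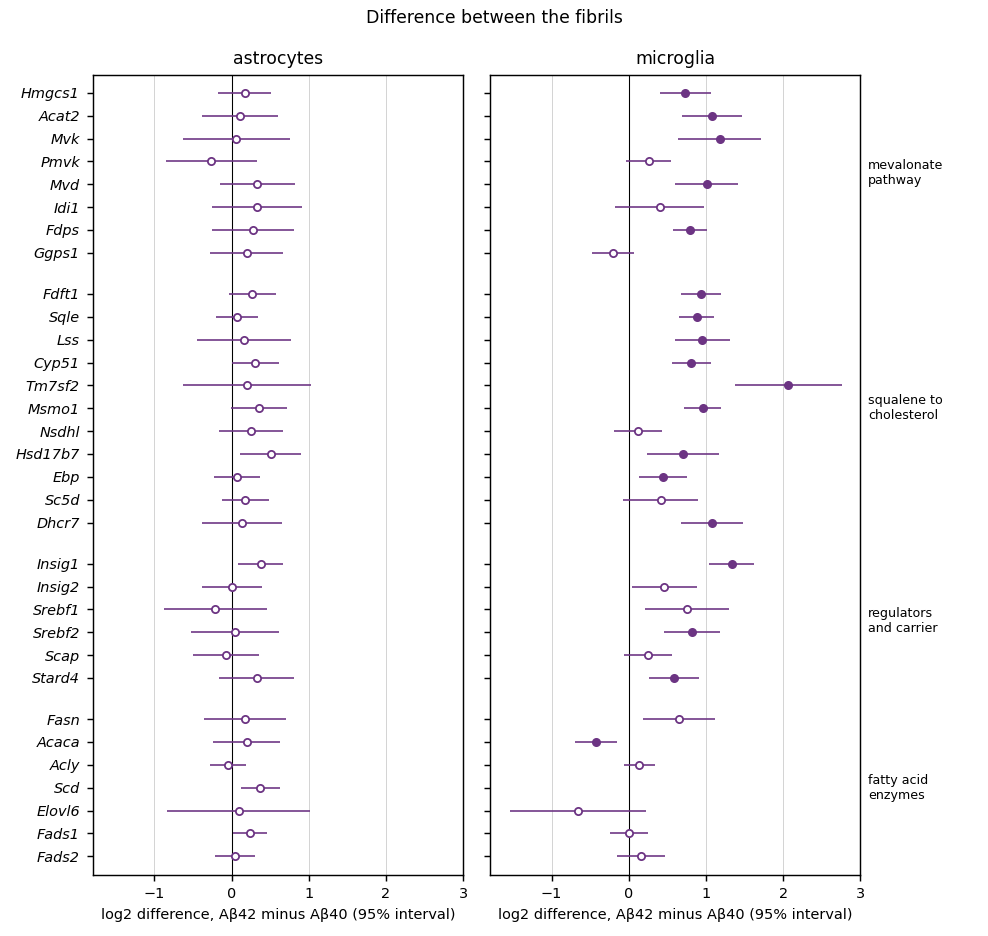
Log2 difference between Aβ42 and Aβ40 fibrils (horizontal axis, Aβ42 minus Aβ40, bars the 95% interval, 3 libraries per group) for each member in astrocytes (left) and microglia (right), filled where the edgeR adjusted p was under 0.05. Most sterol enzymes lie further to the right in microglia than in astrocytes, up to 2.06 for Tm7sf2, and no astrocyte point is filled.

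The promoters of the members, called between the fibrils or not, were read from RefSeq (build GRCr8). Its table holds the 250 bases before and 50 after a start site for 25 of the 32 members, in 26 windows. The letters TCACNCCAC, a form of the sterol regulatory element, were searched on both strands, together with CCAAT, bound by NF-Y, and GGGCGG, bound by Sp1, which are known partners of SREBP. TCACNCCAC was in 0 of 25 member genes and in 1.12% of all 33469 windows. CCAAT was in 19 genes (20 of 26 windows) against 37.5% of all windows, and GGGCGG in 20 genes (21 of 26 windows) against 33.1%. A variant noticed in the sequences, TCACNCGAG, was in 2 genes, Fdps and Srebf1, against 0.415% of all windows. Because the variant was picked from the members' own windows, that comparison is not a test. These matches describe letters in a window and not binding.

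The windows of the 4 members with the smallest p-values between the fibrils in microglia, among those with a RefSeq window, are shown from base -200 to base -41 relative to the start site, 5′ to 3′ on the gene's strand, and capitals mark the last 3 of these motifs wherever they stand on either strand. Insig1 lies at chr4:8057810-8057969 on the minus strand. Msmo1 lies at chr16:29746913-29747072 on the plus strand. Fdps lies at chr2:176804857-176805016 on the minus strand. Cyp51 lies at chr4:30991493-30991652 on the plus strand.
Insig1: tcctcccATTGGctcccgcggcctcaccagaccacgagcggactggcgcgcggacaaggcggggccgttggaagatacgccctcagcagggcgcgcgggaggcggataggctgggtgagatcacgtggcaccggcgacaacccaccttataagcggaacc
Msmo1: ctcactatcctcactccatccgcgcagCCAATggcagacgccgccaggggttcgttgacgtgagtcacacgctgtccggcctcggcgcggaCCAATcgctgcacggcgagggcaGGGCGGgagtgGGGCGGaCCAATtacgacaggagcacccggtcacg
Fdps: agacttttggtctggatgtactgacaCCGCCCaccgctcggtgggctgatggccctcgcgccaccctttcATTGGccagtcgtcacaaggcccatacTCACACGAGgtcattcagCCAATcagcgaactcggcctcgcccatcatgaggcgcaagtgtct
Cyp51: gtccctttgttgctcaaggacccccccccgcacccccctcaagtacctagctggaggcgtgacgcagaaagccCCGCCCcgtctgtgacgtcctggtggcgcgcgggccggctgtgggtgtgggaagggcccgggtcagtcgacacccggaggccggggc

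Insig1 has 1 inverted CCAAT near the far end of the stretch, Msmo1 has 3 CCAAT and 2 GGGCGG, Fdps has 1 inverted GGGCGG and a CCAAT on each strand to either side of TCACNCGAG, and Cyp51 has 1 inverted GGGCGG. The 4 genes, which were all higher with Aβ42 than with Aβ40 in microglia, hold the motifs in different numbers and places.

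The sterol and fatty acid arms were set side by side by summing the scaled CPM of their enzymes in each library, with Scd left out so that both cell types use the same 6 fatty acid genes. Abundant transcripts dominate such sums, mainly Hmgcs1, Cyp51 and Msmo1 in one and Fasn, Acly and the desaturases in the other. In astrocytes the sterol sum was 1581, 1626 and 1410 CPM in controls, 2012, 2162 and 2248 with Aβ42 and 1935, 1736 and 1854 with Aβ40. The fatty acid sum ran the other way, at 1548, 1320 and 1750 CPM in controls, 1229, 1185 and 1149 with Aβ42 and 1085, 1131 and 1141 with Aβ40. No treated library of either sum overlapped the controls.

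In microglia the sterol sum was 1813, 1840 and 1681 CPM in controls, 2315, 2346 and 1968 with Aβ42 and 1266, 1257 and 1437 with Aβ40, with Aβ42 above and Aβ40 below the controls. The fatty acid sum was 854, 927 and 849.7 CPM in controls and lower in both treated groups, at 595, 717 and 637 with Aβ42 and 551, 573 and 568 with Aβ40. Split by stage, the mevalonate enzymes summed to 764 ± 48.9 CPM in controls, 1014 ± 142 with Aβ42 and 642 ± 47.95 with Aβ40, and the enzymes after squalene to 1014 ± 38.5, 1196 ± 87.2 and 678 ± 55.2 CPM.

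The ratio of the sterol to the fatty acid sum was therefore higher than control with each fibril in each cell type. In astrocytes it was 1.02 ± 0.213 in controls, 1.81 ± 0.160 with Aβ42 and 1.65 ± 0.127 with Aβ40. In microglia it was 2.03 ± 0.0824 in controls, 3.42 ± 0.419 with Aβ42 and 2.34 ± 0.171 with Aβ40. Every treated library was above every control of its cell type, and with Aβ40 in microglia both sums were lower than control, the fatty acid sum by more in proportion. The ratio is a description of these sums and was not tested.

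**Figure D4:**
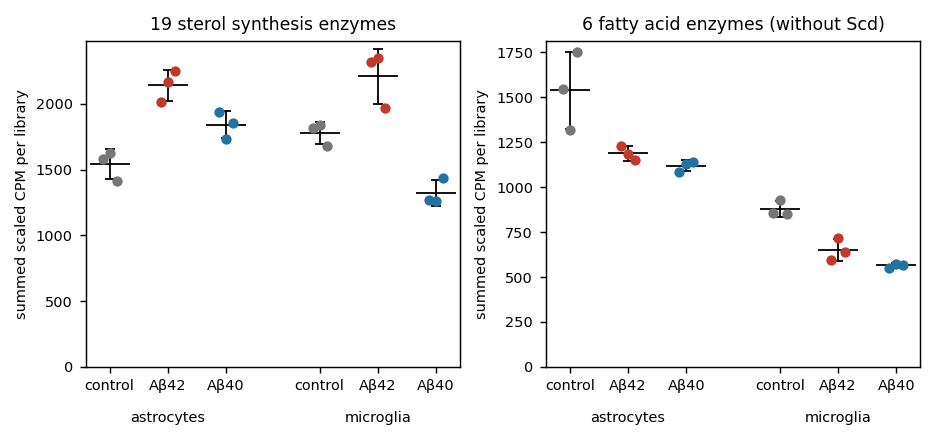
Summed scaled CPM of the 19 sterol enzymes and of 6 fatty acid enzymes (without Scd) in each library (points), with the group mean and SD, for control, Aβ42 and Aβ40 in astrocytes and microglia. In microglia the 3 Aβ42 libraries lie above and the 3 Aβ40 libraries below the controls for the sterol sum, and both lie below the controls for the fatty acid sum.

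The responses of the cell types were compared by an interaction term, the response in microglia minus that in astrocytes. For Aβ40 most members had a lower response in microglia than in astrocytes, whereas for Aβ42 most were not called. For Aβ40 fibrils 20 of 31 members differed, 18 lower and 2 higher in microglia, where 32.5% of all 11581 genes were called (16% higher and 16.5% lower), and 13 of the 19 sterol enzymes were among those lower (median -0.91 against 0.01 over all genes). For Aβ42 fibrils 9 members differed, 7 lower and 2 higher, where 37.3% of genes were called (19.3% higher and 17.9% lower), and 4 sterol enzymes were among those lower (median -0.27 against 0.04). Without the microglia library labelled Aβ42 replicate 1, Fdps no longer passed for Aβ42 (-0.66) and Sc5d did (-0.90).

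Stard4, which rose in astrocytes and fell in microglia with both fibrils, differed by -1.80 ± 0.29, edgeR adjusted p = 6.93e-05 for Aβ42 and by -2.08 ± 0.30 for Aβ40. Acaca, which fell in microglia and was not called in astrocytes, differed by -1.66 ± 0.23, edgeR adjusted p = 1.64e-05, and by -1.05 ± 0.23. Insig1 rose with both fibrils in astrocytes and parted in microglia, with interactions of -0.60 ± 0.20 for Aβ42 and -1.57 ± 0.20, edgeR adjusted p = 7.30e-06 for Aβ40.

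Of the enzymes, Ebp (-1.38 ± 0.20), Sqle (-0.94 ± 0.17), Fdft1 (-0.91 ± 0.19) and Hsd17b7 (-1.45 ± 0.32) had the smallest p-values among those lower in the microglial response to Aβ40. Fads1 and Fads2 were the 2 members called with a positive interaction, Fads1 by 0.53 ± 0.15 with Aβ42 and 0.75 ± 0.15 with Aβ40 and Fads2 by 0.84 ± 0.18 and 0.71 ± 0.18. Both fell with each fibril in astrocytes and were not called in microglia. Srebf2 responded differently to Aβ40 (-1.19 ± 0.33) and was not called for Aβ42 (-0.39 ± 0.33). Srebf1, Insig2 and Scap were called for neither (-0.11, -0.05 and -0.04 for Aβ42, and -1.09, -0.52 and -0.37 for Aβ40).

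**Figure D5:**
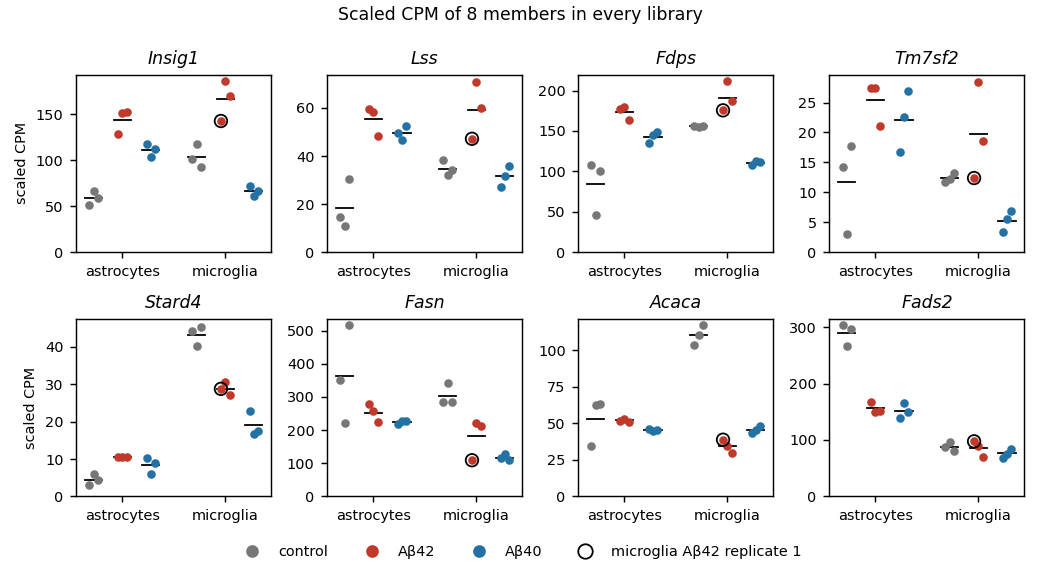
Scaled CPM (vertical axes, from 0) of 8 members in each library (points) for control, Aβ42 and Aβ40 in astrocytes and microglia, with the mean of the 3 libraries as a line and microglia Aβ42 replicate 1 circled. Insig1 lies above control with both fibrils in astrocytes and on either side of control in microglia, and the circled library of Fasn lies at the Aβ40 level.

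In the isoprenoid branches, which carry farnesyl and geranylgeranyl groups to proteins, dolichol and ubiquinone, 4 of 10 genes rose and 0 fell in microglia with Aβ42, 3 rose and 1 fell with Aβ40, and 3 were higher and 0 lower between the fibrils, beside 53.7%, 41% and 20.3% of all genes called. In astrocytes 1 rose and 1 fell with each fibril, beside 37% of all genes with Aβ42 and 33.3% with Aβ40. Of 24 genes of fatty acid elongation, activation and supply, 2 rose and 9 fell in astrocytes with Aβ42 and 1 rose and 9 fell with Aβ40, beside 20.4% and 18.4% of all genes fallen. Thrsp, which favors fatty acid synthesis, fell (-2.43 ± 0.23, edgeR adjusted p = 9.80e-06), and Acsl5, an acyl-CoA synthetase, rose (1.39). In microglia 22 such genes were tested, with 8 risen and 7 fallen with Aβ42 and 7 and 8 with Aβ40, beside 53.7% and 41% of all genes called.

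The genes that process SREBP or degrade sterol-sensing proteins gave 0 of 7 called with either fibril in astrocytes and 1 of 6 with each in microglia, where 53.7% and 41% of all genes were called. Of 10 genes of the LXR and oxysterol pathway, which exports excess sterol, 3 rose and 1 fell with each fibril in astrocytes, beside 37% of all genes with Aβ42 and 33.3% with Aβ40. In microglia 3 rose and 6 fell with Aβ42 and 3 rose and 7 fell with Aβ40, beside 53.7% and 41% of all genes called.

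Marker levels of other cell types moved with the treatments. In astrocyte cultures the microglia markers summed to 306 to 355 CPM in controls, 56.6 to 79.1 with Aβ42 and 32.3 to 44.9 with Aβ40, and the astrocyte markers to 8962 to 10884, 5761 to 5996 and 6395 to 6690 CPM. The 10 markers of the oligodendrocyte lineage, cells that also make much sterol, summed to 2165 to 3321, 1953 to 2137 and 2049 to 2117 CPM. Of these, 0 rose and 5 fell with each fibril, beside 20.4% of all genes fallen with Aβ42 and 18.4% with Aβ40.

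In microglia cultures the microglia markers summed to 7351 to 8403 CPM in controls, 1927 to 3138 with Aβ42 and 2751 to 3412 with Aβ40. The oligodendrocyte lineage markers summed to 2575 to 2854, 3024 to 3931 and 3006 to 3677 CPM. Of the 10, 6 rose and 1 fell with Aβ42 and 5 and 1 with Aβ40, beside 53.7% and 41% of all genes called. Between the fibrils 2 of 10 were higher with Aβ42, beside 11.3% of all genes higher, and the ranges of the sums overlapped. Fibroblast markers (5 genes) summed to 46.4 to 58.7 CPM in control microglia, 134 to 154 with Aβ42 and 119 to 123 with Aβ40, and neuron markers (5 genes) to 228 to 245, 337 to 375 and 315 to 329.6 CPM. In astrocyte cultures the fibroblast markers summed to 127 to 167 CPM in controls, 156 to 201 with Aβ42 and 178 to 216 with Aβ40, and the neuron markers to 412 to 495, 222 to 233 and 316 to 327 CPM, so the neuron markers were lower with both fibrils. No marker was at 0 in any group. The part of these markers in the changes of the sterol and fatty acid genes was not tested.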

How the data were processed

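RNA was sequenced from 18 libraries of rat astrocytes and microglia in 6 groups of 3, prepared with a stranded mRNA kit and read in pairs. The authors deposited, per library, raw read counts per gene symbol, and the submitters' processing notes name STAR, Salmon, DESeq2 and the build rn5. Whether counting used strand is not given in the sources used here, so genes that overlap an antisense gene are uncertain. Counts on genes were 2271834 to 22274367 per library, and intervals and floors cover counting error only. Reads off genes or ambiguous between genes (together 21.7 to 34.2%) were left out. Some genes outside the list of members are not reported here.

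From the counts, edgeR 4.0.16 in R 4.3.3 was run with TMM scaling, its filter on low counts and the quasi-likelihood test, with Benjamini-Hochberg adjustment over all genes tested and calls at an adjusted p under 0.05. Each cell type was fitted with its 9 libraries, and the control and interaction comparisons with all 18 on the 16704 shared symbols. The members and lists were chosen with earlier results of these data known. Members described by name were the 6 regulators, the called members with the 6 smallest p-values in each direction, and the extremes of each arm, with further members added after their values were seen. Promoters were to be printed for members with TCACNCCAC, and since no window held it the 4 shown were chosen afterwards by p-value. No replicate pair agreed within sampling noise. The test was tried on simulated data. Alternatives were DESeq2 1.42.0, other scalings, filters and thresholds, a replicate block, fits of 2 groups and each library left out. Thinning, the file naming term and the interaction of fibril and cell type were added after seeing the data. Same-numbered libraries of different groups had correlations of -0.53 to 0.36 in astrocytes and -0.19 to 0.22 in microglia, so the numbers were not taken as pairs. Figures were drawn with matplotlib 3.10.9.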

Additional observations from a re-analysis of the deposited data

Results flagged for a closer look

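The response to a fibril differed between microglia and astrocytes, by edgeR's test of the interaction, for 9 members with Aβ42 and 20 with Aβ40, beside 37.3% and 32.5% of all genes. The values are log2 differences, the response in microglia minus that in astrocytes. With Aβ42 fibrils they were Acaca (-1.66), Stard4 (-1.80), Ebp (-0.99), Fads2 (0.84), Hsd17b7 (-1.25), Fads1 (0.53), Nsdhl (-0.81), Insig1 (-0.60) and Fdps (-0.74). With Aβ40 fibrils they were Insig1 (-1.57), Stard4 (-2.08), Ebp (-1.38), Sqle (-0.94), Fads1 (0.75), Fdft1 (-0.91), Hsd17b7 (-1.45), Fdps (-1.26), Acaca (-1.05), Lss (-1.50), Cyp51 (-0.74), Acat2 (-1.27), Fads2 (0.71), Dhcr7 (-1.22), Acly (-0.49), Tm7sf2 (-2.13), Srebf2 (-1.19), Mvk (-1.58), Sc5d (-0.88) and Nsdhl (-0.68). The direction in each cell type is given by its own comparison with control, as for Stard4, which rose in astrocytes and fell in microglia with both fibrils.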

How the results depend on the processing

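Counts are of members called, and the cause of a change was not tested. At an adjusted p under 0.01 they were 9 for Aβ42 against control in microglia (15 at 0.05, beside 39.7% of all genes at 0.01) and 10 for the fibril difference in microglia (18 at 0.05, beside 1.13% of all genes at 0.01). At least 2-fold, with the share of all genes in parentheses, they were 6 (19.8%) for Aβ42 against control in astrocytes, 3 (17.8%) for Aβ40 against control in astrocytes, 1 (21.3%) for Aβ42 against control in microglia, 5 (17.6%) for Aβ40 against control in microglia, 6 (3.62%) for the fibril difference in microglia, 12 (43.8%) for the controls, 3 (24.4%) for the Aβ42 interaction and 12 (21.4%) for the Aβ40 interaction. The fibril difference in microglia gave 8 with its 2 groups alone, and the Aβ42 interaction 4 after thinning, where 2966 genes were called in all against 4314. Leaving out 1 library gave, with the genes called in all in parentheses, 11 to 22 (3371 to 5556) for Aβ42 against control in astrocytes, 9 to 16 (2955 to 4961) for Aβ40 against control in astrocytes, 0 (0 to 4) for the fibril difference in astrocytes, 9 to 23 (4659 to 7838) for Aβ42 against control in microglia, 13 to 15 (3608 to 4127) for Aβ40 against control in microglia, 8 to 22 (99 to 6004) for the fibril difference in microglia, 18 to 21 (7494 to 8487) for the controls, 7 to 12 (3723 to 5444) for the Aβ42 interaction and 19 to 22 (3196 to 4126) for the Aβ40 interaction. With the replicate block the counts were 12 (3644) for Aβ42 against control in astrocytes, 11 (3209) for Aβ40 against control in astrocytes, 0 (0) for the fibril difference in astrocytes, 13 (5431) for Aβ42 against control in microglia, 16 (4191) for Aβ40 against control in microglia, 15 (752) for the fibril difference in microglia, 18 (6926) for the controls, 9 (3748) for the Aβ42 interaction and 19 (3262) for the Aβ40 interaction, and the member counts were all within 1.5 times the value without it, while the genes called in all for the fibril difference in microglia went from 2198 to 752.

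Of 86 named member results past the threshold, 0 changed sign under any alternative run, and 88 of 1325 alternative values were no longer past it. The log2 values that changed sign were all uncalled, and follow the reported value, which stands in parentheses. The files of astrocyte control replicate 2 and Aβ42 replicate 3 are named by another scheme, and they were left out or the scheme was used as a model term. For Aβ42 against control in astrocytes these were Pmvk (-0.16) at -0.38 to 0.17 without 1 library, Srebf1 (-0.21) at -0.54 to 0.095 without 1 library. For Aβ40 against control in astrocytes these were Ggps1 (-0.041) at -0.19 to 0.25 without 1 library or 0.095 (thinned) or 0.24 (without the other-scheme libraries) or 0.15 (the file naming term), Msmo1 (-0.054) at -0.17 to 0.064 without 1 library or 0.053 (without the other-scheme libraries) or 0.044 (the file naming term), Srebf1 (0.0013) at -0.33 to 0.31 without 1 library or -0.036 (library totals) or -0.0024 (10 counts in every library) or -0.00040 (2 groups) or -0.041 (thinned) or -0.34 (without the other-scheme libraries) or -0.18 (the file naming term). For the fibril difference in astrocytes these were Insig2 (0.0032) at -0.16 to 0.11 without 1 library or -0.0043 (library totals) or -0.00063 (10 counts in every library) or -0.061 (without the other-scheme libraries) or -0.035 (the file naming term), Scap (-0.076) at 0.092 (the file naming term), Srebf1 (-0.21) at 0.083 (the file naming term), Srebf2 (0.043) at -0.055 to 0.15 without 1 library. For Aβ42 against control in microglia these were Fads2 (-0.047) at -0.14 to 0.095 without 1 library, Idi1 (0.068) at -0.31 to 0.33 without 1 library. For Aβ40 against control in microglia these were Elovl6 (-0.12) at -0.50 to 0.25 without 1 library, Insig2 (0.15) at -0.010 to 0.30 without 1 library, Scap (0.078) at -0.032 to 0.19 without 1 library. For the controls these were Hmgcs1 (0.093) at -0.051 to 0.23 without 1 library or -0.18 (library totals). For the Aβ42 interaction these were Insig2 (-0.049) at -0.23 to 0.074 without 1 library or 0.0088 (DESeq2 size factors) or 0.0013 (library totals) or 0.0053 (DESeq2's Wald test) or 0.011 (10 counts in every library) or 0.13 (thinned), Scap (-0.042) at -0.17 to 0.18 without 1 library or 0.014 (DESeq2 size factors) or 0.012 (DESeq2's Wald test) or 0.020 (10 counts in every library) or 0.011 (thinned), Srebf1 (-0.11) at -0.41 to 0.24 without 1 library. Depth limits the low members, Elovl6, Stard4 and Hsd17b7.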

Other observations

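Genes next to the sterol pathway also changed. In microglia Ch25h, which makes the oxysterol 25-hydroxycholesterol, rose with Aβ42 (1.85 ± 0.13, edgeR adjusted p = 1.88e-07) and with Aβ40 (1.61). Soat1, which esterifies cholesterol for storage, fell with Aβ40 (-1.27 ± 0.10, edgeR adjusted p = 4.62e-07) and with Aβ42 (-0.92), and Mylip, whose product degrades the LDL receptor, fell with Aβ42 (-1.84) and with Aβ40 (-1.65). In astrocytes Cyp7b1, an oxysterol hydroxylase, rose with Aβ42 (2.78 ± 0.17, edgeR adjusted p = 4.11e-07) and Aβ40 (2.24), as it did in microglia (3.18 and 3.22). Abca1, which exports sterol to lipoproteins, fell with Aβ42 in astrocytes (-0.50) and with both fibrils in microglia (-0.61 and -0.56), and was at -0.45 with Aβ40 in astrocytes.

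Of the acyl-CoA synthetases, Acsl1 and Acsl5 responded differently in the cell types. Acsl1 rose in microglia with Aβ42 (1.85 ± 0.11, edgeR adjusted p = 3.89e-08) and Aβ40 (2.03), and its response was larger there than in astrocytes (interactions of 1.95 and 2.46). Acsl5 rose in astrocytes (1.39 and 1.32), where its control level was lower than in microglia (2.64, microglia minus astrocytes), and fell in microglia (-1.04 with Aβ42 and -0.77 with Aβ40). Hacd4, a dehydratase of fatty acid elongation, fell in microglia with Aβ42 (-2.33 ± 0.18, edgeR adjusted p = 5.22e-07) and Aβ40 (-2.18). Acss2, which makes acetyl-CoA from acetate, was higher with Aβ42 than with Aβ40 in microglia (0.79 ± 0.16, edgeR adjusted p = 0.0138), as the sterol enzymes were.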
